A study of Mus musculus with 2 samples.

Results

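The interferon-induced GTPases described here are 10 mouse genes of 2 families, the guanylate-binding proteins Gbp2, Gbp3, Gbp6, Gbp7 and Gbp9 and the immunity-related GTPases Iigp1, Igtp, Irgm1, Irgm2 and Ifi47. They were chosen by their gene symbols, with the signals of these same arrays already known, so their differences are given as a description and no test is made of them. Of the 10 genes, 9 had at least 1 probe set annotated with that symbol alone, giving 13 of the 45101 probe sets of the array and 9 of 18193 genes with such a probe set. Gbp9 is not analysed here. The arrays compare MOS-J cells, a mouse osteosarcoma line, that carry human DKK1 with MOS-J cells that carry a control vector, 1 array each. DKK1 is a secreted inhibitor of canonical Wnt signalling. The sample labels name a lentiviral vector in both groups, while the protocols describe a lentiviral route ending in G418-resistant clones as well as a plasmid route with Blasticidin S selection, a dsRed-mito label and cell sorting. Which route the profiled cells took, and whether each sample was a clone or a pool, was not given in the sources used here.

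Interferon-induced GTPases are among the most strongly inducible proteins of interferon-treated cells and are known from mouse macrophages and fibroblasts as defences against bacteria and parasites that live inside vacuoles. Guanylate-binding proteins are large GTPases that assemble on pathogen membranes. Immunity-related GTPases fall into effectors such as Iigp1 and Ifi47, which load onto the vacuole, and the regulators Irgm1, Irgm2 and Igtp, which sit on the membranes of the cell itself and hold the effectors inactive there. Their transcription is driven by STAT and IRF factors, which bind interferon-stimulated response elements (ISRE) and gamma-activated sites (GAS) near the start of the genes.

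The promoter stretches below are shown because the members' signals differed together between the arrays and because such elements are known from this family. They are RefSeq sequences of GRCm38.p6, 110 bases ending just before an annotated start, in the direction of the gene. A promoter window was matched for 7 members. Capitals mark matches to either of a pair of motifs. The ISRE-like one is GAAA, any 2 bases and GAAA again, searched on both strands. The GAS-like one, TTCNNNGAA, is its own reverse complement.
Gbp2, chr3:142620553-142620662, plus strand: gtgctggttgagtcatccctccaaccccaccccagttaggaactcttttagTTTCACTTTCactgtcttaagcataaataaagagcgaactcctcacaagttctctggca
Gbp3, chr3:142559934-142560043, plus strand: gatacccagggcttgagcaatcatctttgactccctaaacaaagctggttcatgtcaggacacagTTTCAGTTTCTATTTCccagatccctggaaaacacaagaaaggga
Gbp7, chr3:142530226-142530335, plus strand: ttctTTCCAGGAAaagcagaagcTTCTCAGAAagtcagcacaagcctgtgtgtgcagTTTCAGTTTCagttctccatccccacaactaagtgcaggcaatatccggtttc
Igtp, chr11:58199446-58199555, plus strand: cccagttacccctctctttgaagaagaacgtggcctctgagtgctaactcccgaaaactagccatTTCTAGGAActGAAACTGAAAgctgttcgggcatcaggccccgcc
Irgm1, chr11:48871421-48871530, minus strand: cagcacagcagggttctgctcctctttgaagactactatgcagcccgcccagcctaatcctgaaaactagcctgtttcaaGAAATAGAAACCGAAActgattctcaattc
Irgm2, chr11:58214867-58214976, plus strand: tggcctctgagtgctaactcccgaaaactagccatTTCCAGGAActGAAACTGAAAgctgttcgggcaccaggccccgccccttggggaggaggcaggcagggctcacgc
Ifi47, chr11:49076477-49076586, plus strand: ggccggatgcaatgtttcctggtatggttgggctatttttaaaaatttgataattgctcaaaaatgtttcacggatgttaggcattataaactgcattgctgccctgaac

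An ISRE-like match lay in the window of 6 of these 7 members, beside 3.44% of all 32851 promoter windows and 3.99% of the 27025 genes with a window. The window runs from 250 bases before the start to 50 bases after it. The matches began between 64 and 24 bases before the start. In Gbp3 and Irgm1 a pair of matches overlapped, so that GAAA occurs 3 times in a row at the same spacing. In Gbp2, Gbp3 and Gbp7 the match is on the opposite strand and reads TTTC in the printed stretch. A GAS-like match lay in 3 of the 7 members, Gbp7, Igtp and Irgm2, beside 8.30% of all windows and 9.55% of the genes with a window. In Igtp and Irgm2 it stood 2 bases from the ISRE-like match, and these neighbouring genes had similar promoters, with 244 of 270 positions alike (90.4%) in the best local alignment. The Ifi47 window held neither motif, which says only that these letters are not in that window. Gbp3 has a second annotated start in the table, whose window held neither. Among the antiviral effector genes listed further below, 13 of 21 with a window held the ISRE-like motif (61.9%), and among all genes called higher it was 52 of 1001 (5.19%). A match of letters is a description and not a measured binding site.

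Signals are linear MAS5 values, 1 per probe set, scaled by array. The DKK1 array had a median of 78.6 and the control array one of 62.6. Differences are log2(signal + 16.6) of DKK1 minus control, with the 25th percentile of the signals (16.6) added to keep dim values from dominating. Only probe sets whose mean signal reached 71.3, the median of such means, were taken as measured, and they were averaged by gene. To be called higher or lower, a gene needed a difference of at least 1 (2-fold) and the same sign in all its measured probe sets. With 1 array a group there is no replicate error and no test, batch and group cannot be told apart, and precision is limited by the number of arrays. In such bulk RNA, more cells with a transcript and more transcript in each cell cannot be told apart.

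All 9 measured members were higher in the DKK1 cells, each by at least 4-fold. Their log2 differences ran from 2.0 for Irgm1 to 3.55 for Iigp1, with a median of 2.85, beside a median of 0.10 over all 11058 measured genes. None was lower. Of all measured genes, 11.7% were called higher, 6.91% were called lower, and 2.78% were called higher by 4-fold or more. Because the members were chosen with these signals known, nothing is read from their count. In rank from the highest difference, they lay between position 43 and position 307 of the 11058 genes. The members' signals were between 1921 and 9120 on the DKK1 array and between 208 and 835 on the control array, so every signal was above 71.3 on both arrays and no fold rests on a dim value.

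**Figure D1:**
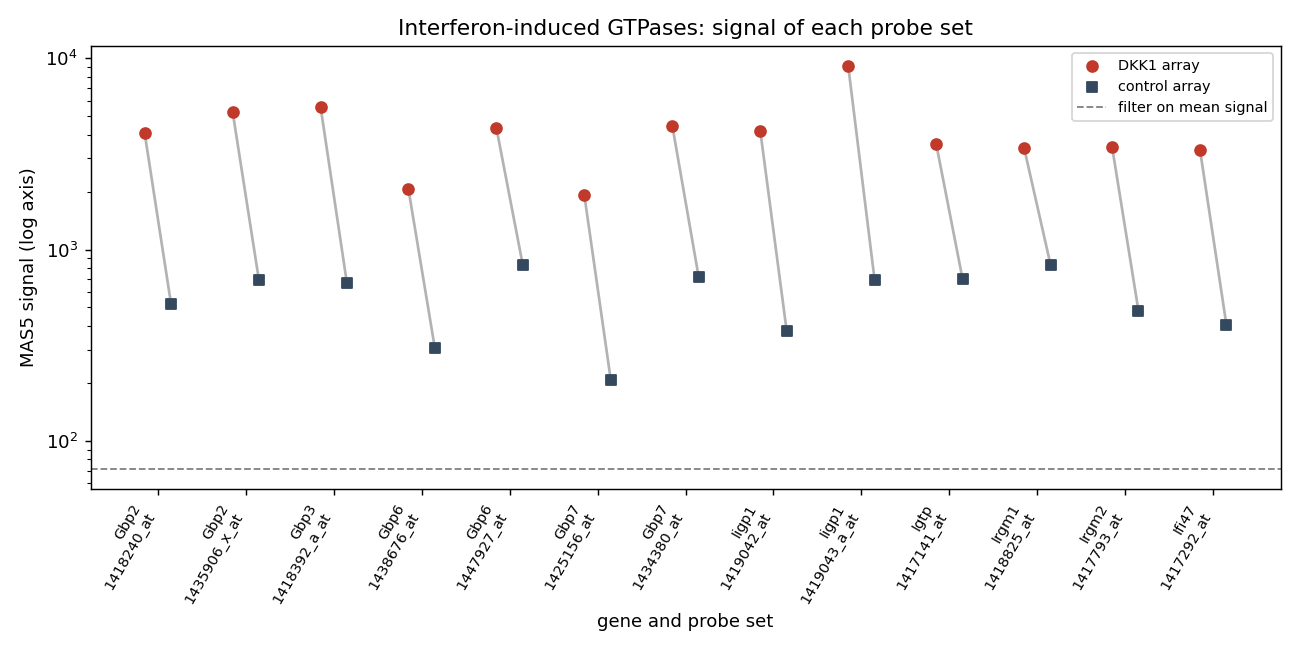
MAS5 signal (log axis) of each of the 13 probe sets of the 9 measured GTPase genes, with the DKK1 array as circles, the control array as squares and a line joining the pair. All DKK1 signals lie at 1921 or above and all control signals at 835 or below, and the dashed line is the filter of 71.3.

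Among the guanylate-binding proteins, Gbp2 and its neighbours on chromosome 3 gave much the same difference. Gbp2, which in mice is recruited to the vacuole of Toxoplasma, had 2 probe sets. Probe set 1418240_at had a signal of 4072 in DKK1 cells and 521 in control cells, and 1435906_x_at had 5276 in DKK1 cells and 691 in control cells. These are 7.81-fold and 7.64-fold, and the gene's difference was 2.91 with an SD of 0.02 between the probe sets. The x in the second name marks a probe set that may also bind related transcripts, and here both probe sets gave nearly the same fold.

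Gbp3 had 1 probe set, 1418392_a_at, which read 5596 in DKK1 cells and 668 in control cells, a difference of 3.04 (8.38-fold). Gbp7, which lies on the other side of Gbp3, is known in mice for a role in the killing of intracellular bacteria. Its probe set 1425156_at had a signal of 1921 in DKK1 cells and 208 in control cells (9.21-fold), and 1434380_at had 4444 in DKK1 cells and 718 in control cells (6.19-fold). The gene's difference was 2.85 with an SD of 0.36 between these probe sets, the widest disagreement among the 4 members with 2 probe sets. The 3 genes of this cluster spanned only 2.85 to 3.04, less than the SD of 0.45 that probe sets of 1 gene showed on average over all genes with several.

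Gbp6 belongs to the second cluster of guanylate-binding proteins, on chromosome 5. Probe set 1438676_at had a signal of 2066 in DKK1 cells and 305 in control cells (6.77-fold), and 1447927_at had 4322 in DKK1 cells and 830 in control cells (5.21-fold). Its difference of 2.53 (SD 0.24 between probe sets) was the smallest of the 4 guanylate-binding proteins, 0.22 being the SD between those 4 genes. Genes of this family are close copies of each other, and probes of one may bind transcripts of another, so the split of signal between single genes is uncertain.

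The immunity-related GTPases among the members spread more widely, from 2.0 to 3.55 with an SD of 0.60 between 5 genes. Of these 5, the effectors Iigp1 and Ifi47 were at the top. Gm12185, a gene of this family outside the members, was lower than all 5 (0.68, not called), with a dim control signal. Iigp1, which loads onto the vacuoles of Toxoplasma in mouse cells, had a signal of 4182 in DKK1 cells and 376 in control cells at probe set 1419042_at (11.1-fold). At 1419043_a_at it had 9120 in DKK1 cells and 694 in control cells (13.1-fold). Its difference of 3.55 (SD 0.19 between probe sets) was the highest of all 9, and both probe sets were designed from the same cDNA clone sequence, so they are not independent. Ifi47, also known as Irgd, had a signal of 3319 in DKK1 cells and 405 in control cells at 1417292_at, a difference of 2.99 (8.20-fold).

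Among the members, the regulators had the smaller differences of this family. Irgm2 had a signal of 3450 in DKK1 cells and 480 in control cells at 1417793_at, a difference of 2.80 (7.19-fold). Igtp, also known as Irgm3, had 3576 in DKK1 cells and 703 in control cells at 1417141_at, a difference of 2.32 (5.09-fold). Irgm1, whose loss in mice impairs autophagy and immune cell survival, had 3399 in DKK1 cells and 835 in control cells at 1418825_at, a difference of 2.0 (4.07-fold). All 3 regulators lay below both effectors among the members, with medians of 2.32 for the regulators and 3.27 for these effectors. The step between the nearest pair, 2.80 for Irgm2 and 2.99 for Ifi47, is smaller than the SD of 0.45 between probe sets of 1 gene, and each of these genes but Iigp1 rests on 1 probe set. Igtp and Irgm2 lie side by side on chromosome 11 behind similar promoters and differed by 0.48 in their difference, about 1 such SD. Over all 9 genes the SD between genes was 0.45, equal to that SD, so the order among the middle members is not settled by these arrays.

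**Figure D2:**
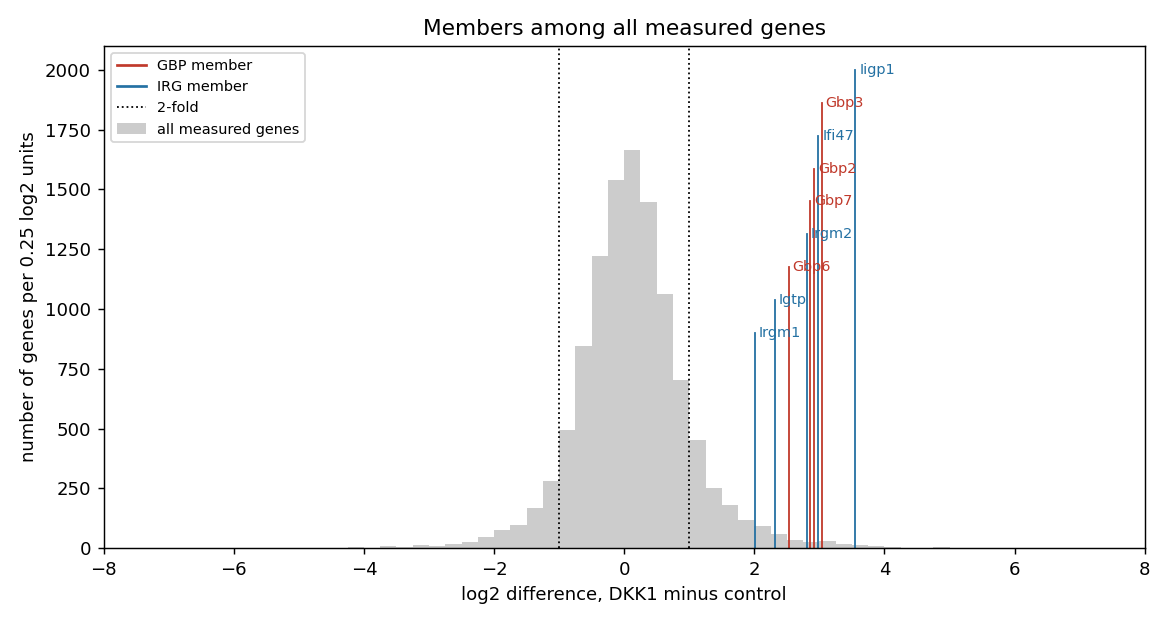
Number of measured genes (grey bars, 0.25 log2 units wide) by log2 difference of DKK1 minus control, with a labelled line at the value of each member; line heights only separate the labels. The 9 members lie between 2.0 and 3.55, beyond the dotted 2-fold lines, and the median of all 11058 genes is 0.10.

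Among other GTPases known to be induced by interferon, the measured ones were also higher, most of them with a dim control signal. Of 21 on the list, 16 are not used here because no probe set carrying their symbol alone was used, and 1 was below the filter. The 4 measured ones were all called higher, beside 11.7% of all measured genes. Gbp8, Mx1 and Mx2 had control signals below 71.3 and passed the filter only through the DKK1 array, so nothing is read from this count. With the stricter filter only 1 gene of the list was measured, Gm4951, and it was called higher. A further family member that was not on the list, Gm12185, was not called and is given with the neighbouring genes. Gm4951, also named Ifgga2 in RefSeq and the nearest measured gene before Iigp1, had a signal of 2410 in DKK1 cells and 208 in control cells, a difference of 3.44. Gbp8, of the same cluster as Gbp6, had 246 in DKK1 cells and 24.9 in control cells (2.66, at least 3.45-fold with the dim signal raised to 71.3). The dynamin-like antiviral GTPase Mx2 had 240 in DKK1 cells and 15.9 in control cells (2.98, at least 3.37-fold), and Mx1 had 179 in DKK1 cells and 52.2 in control cells (1.51, at least 2.51-fold). The call of Mx1 ended with scaling on the poly-A controls (0.93). Gbp2b, which lies between Gbp3 and Gbp2, was below the filter with 30.2 in DKK1 cells and 22.6 in control cells, so the cluster on chromosome 3 holds a gene for which no difference can be given.

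Relatives that are not known to respond to interferon differed less than the members. Of 10 measured dynamins, atlastins, mitofusins and related GTPases, 3 were called higher and none lower. Over all measured genes 11.7% were called higher and 6.91% lower. The median of the relatives was 0.50 (−0.12 with poly-A control scaling), beside 0.10 over all measured genes as deposited. Atlastins are the closest relatives of guanylate-binding proteins and shape the endoplasmic reticulum. Atl3 (1.10, SD 0.66 between 5 probe sets), Dnm1 (1.03) and Dnm3 (1.11, with a dim control signal) were the called ones, and each of these calls ended under at least 6 of the 11 other settings. Irgq, an immunity-related GTPase relative, was not called (0.50), with 871 in DKK1 cells and 610 in control cells. The highest of these relatives was 1.11, below the lowest member at 2.0.

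Genes next to the members on the chromosome were mostly not called, as were most measured genes (11.7% higher, 6.91% lower). The nearest 3 measured genes on each side of each cluster, and those between members, came to 31 genes that were not on the GTPase lists. Of these, 2 were called higher and 3 lower, 26 were not called, and the median was 0.19, beside 0.10 over all measured genes. With so few genes these counts cannot be told apart from the shares over all genes, and nothing particular to neighbours is read from them. The higher ones were Unc5c (1.09) beside the chromosome 3 cluster and BC023105 (2.77, at least 2.43-fold), a pseudogene that follows Iigp1 (173 in DKK1 cells, 11.1 in control cells). Kyat3 (−1.05), Sgcd (−1.15) and Gemin5 (−1.09) were lower. The calls of Unc5c, Kyat3, Sgcd and Gemin5 each ended under at least 2 other settings. One of the 31, Gm12185 between Irgm1 and Ifi47, is by its RefSeq synonym Irgb2b1 an immunity-related GTPase that the lists left out. It was not called at 0.68, with 111 in DKK1 cells and 63.1 in control cells. The array covers only part of these clusters, since several annotated genes between Irgm1 and Ifi47 had no probe set used here.

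**Figure D3:**
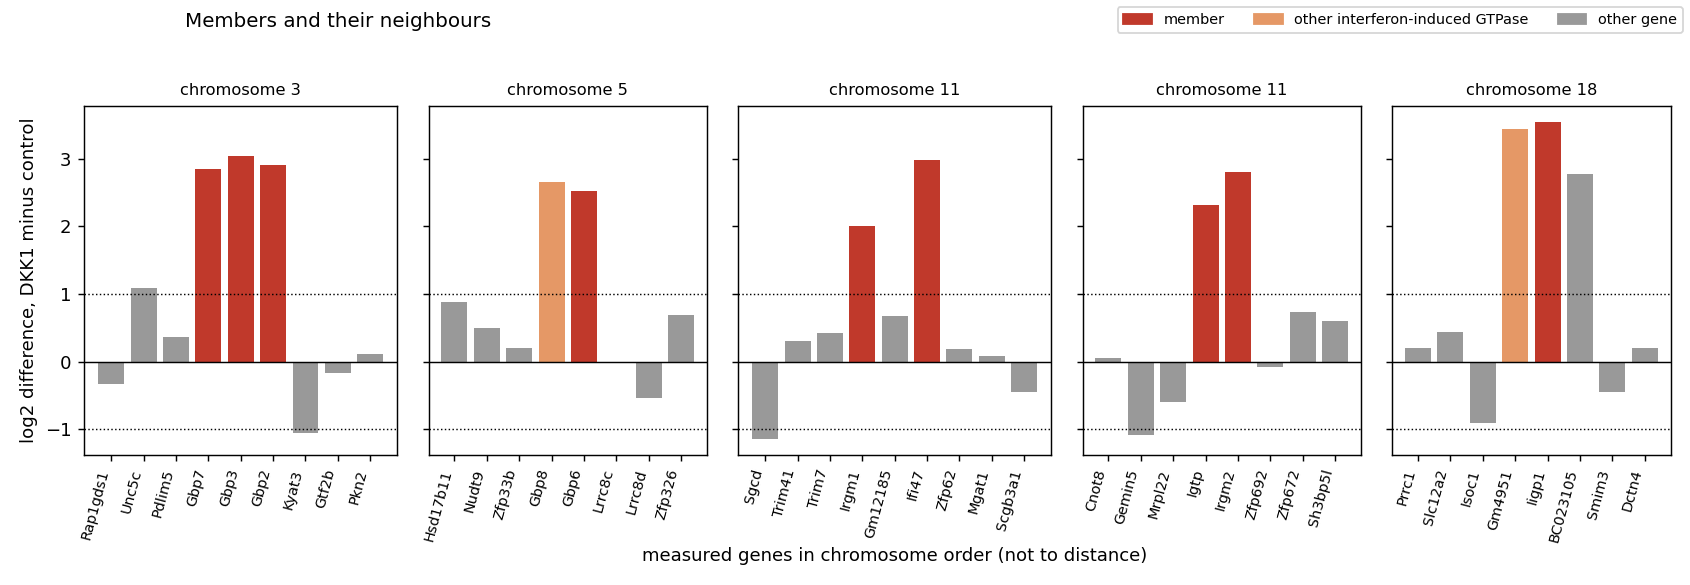
Log2 difference of DKK1 minus control for the members (red), other interferon-induced GTPases (orange) and other genes (grey), in chromosome order within each cluster and not to distance; dotted lines mark 2-fold. The members and the orange genes stand between 2.0 and 3.55, and 26 of 31 neighbours lie within the 2-fold lines. Of all measured genes, 11.7% were called higher and 6.91% lower.

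Receptor, kinase and factor genes of interferon signalling were called higher about as often as all measured genes, of which 11.7% were. Of 17 measured receptors, kinases, STAT and IRF genes, 2 were called higher and none lower. Their median was 0.52 (−0.12 with poly-A control scaling), beside 0.10 over all measured genes as deposited. Irf7, the factor that amplifies type I interferon responses, had a signal of 1350 in DKK1 cells and 263 in control cells (2.29). Stat2, the partner of Irf9 in the complex that binds ISREs, was higher by 1.25 (SD 0.50 between 2 probe sets), a call that ended under 4 other settings. Irf1 (0.74), which acts on GBP promoters, Irf9 (0.63) and the receptor subunit gene Ifnar2 (0.83) were not called, and these were picked after their values were seen. Ifnar2 passed the call with the brightest probe set (1.06) and with hybridisation control scaling (1.20), where the list had 4 and 6 genes called higher. Among interferon ligands, 9 of 10 genes were below the filter. Ifng had signals of 2.51 in DKK1 cells and 13.3 in control cells, and Ifnb1 had 77.4 in DKK1 cells and 50.4 in control cells. Ifna1 had 70.8 in DKK1 cells and 13.8 in control cells. With no filter, 3 of the 10 ligands were called higher and 0 lower, with a median of 0.23, all at dim signals. The measured one was Ifnz, with 140 in DKK1 cells and 14.6 in control cells (2.33), whose call ended at 0.97 when the dim signal was raised to 71.3. Of 9 feedback inhibitors, 4 were called higher and none lower, with a median of 0.95. They included Usp18, which blocks the type I receptor (2.20), Socs3 (1.48) and Cish (1.26). With poly-A control scaling 1 was called higher and 1 lower, with a median of 0.34, and the calls of Socs3 (0.84) and Cish (0.63) ended.

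Downstream genes are given by list, beside 11.7% of all measured genes called higher and 6.91% called lower. Of 24 measured antiviral effectors, 16 were called higher and none lower, with a median of 1.69. With poly-A control scaling the count was 13 higher and 1 lower, the lower one being Rsad2 (−1.08), with a median of 1.08. The effectors were led by Ifit3, of a family that binds viral RNA (3.93, with 10738 in DKK1 cells and 687 in control cells), the RNA sensor regulator Dhx58 (3.31) and Oasl2 (2.73). Of 18 genes on a list set up here for interferon gamma, 11 were below the filter on these arrays. Of the 7 measured ones, 0 were called in either direction, with a median of 0.44 (−0.12 with poly-A control scaling). The lowest were Cd74, the invariant chain of MHC class II (−0.36), and the chemokine gene Cxcl10 (−0.32, with 1068 in DKK1 cells and 1339 in control cells). The highest was the immunoproteasome subunit gene Psmb10 (0.97). These 3 were named after their values were seen. The interferon gamma count was 1 higher with loess, 2 higher with scaling on the hybridisation controls, and 2 higher of 18 genes with no filter (median 0.07). With 7 genes measured, a count of 0 cannot be told apart from the share over all genes. These lists were not built to tell types of interferon apart, and no such contrast is drawn.

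Genes of the machinery that the GTPases work with were mostly not called, as were most measured genes (11.7% higher, 6.91% lower). Autophagy conjugation proteins are needed to place both families on vacuoles, and of 21 measured genes of autophagy and vacuole targeting 1 was called higher, 1 lower and 19 neither, with a median of −0.10 that was above 0 with no filter, a stricter filter and hybridisation control scaling. The lower one was Sqstm1, an autophagy adaptor also induced by oxidative stress (−2.49). The ubiquitin ligase gene Trim21, itself induced by interferon, was the higher one (1.51), a call that ended with poly-A control scaling (0.90). Of 4 measured inflammasome genes, which act after GBPs expose bacterial products, Casp4 was lower (−1.30), Il18 was higher (1.06) and the others were not called. The call of Casp4 ended with hybridisation control scaling (−0.93), and that of Il18 with median centring (0.93) and poly-A control scaling (0.42).

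**Figure D4:**
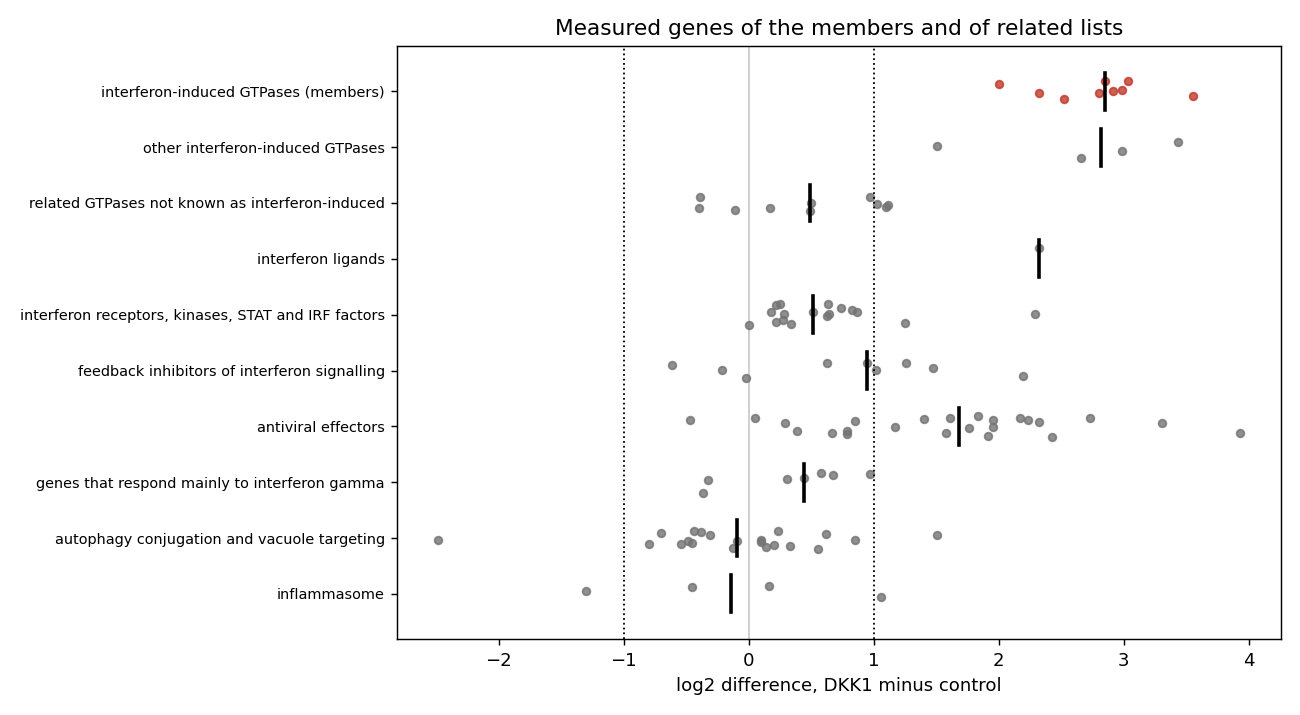
Log2 difference of DKK1 minus control for each measured gene (points, with vertical jitter) of the GTPase members and of 9 related lists, with the list median as a black bar and dotted lines at 2-fold. The members have a median of 2.85, the antiviral effectors 1.69, and the list labelled as responding mainly to interferon gamma 0.44 (−0.12 with poly-A control scaling).

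The cell line was checked against marker genes. The mesenchymal and bone matrix genes Vim, Col1a2, Sparc and Twist1 were measured, and so were Sp7 (117 in DKK1 cells, 87.0 in control cells) and Alpl (182 in DKK1 cells, 147 in control cells). Ibsp was below the filter with 34.7 in DKK1 cells and 41.6 in control cells. Markers of macrophages and leukocytes, cells in which these GTPases are best known, summed over 13 genes to 1569 in DKK1 cells and 1201 in control cells. Of these genes 8 were below the filter, 1 was called higher and 1 lower. Those measured and not called were Cd14 (521 in DKK1 cells, 370 in control cells), Csf1r (162 in DKK1 cells, 134 in control cells) and Cd68 (127 in DKK1 cells, 86.4 in control cells). Ptprc and Itgam were under 16.6 on both arrays, with Ptprc at 4.24 in DKK1 cells and 11.7 in control cells at its brightest probe set and Itgam at 3.31 in DKK1 cells and 4.42 in control cells. Adgre1 was also below the filter, at 53.1 in DKK1 cells and 49.6 in control cells. Lyz2 was the higher one (136 in DKK1 cells, 14.5 in control cells), a call that ended at 0.93 with the dim signal raised to 71.3. The part of these markers in the members' signals was not tested. All 5 lymphocyte markers were below the filter. Of 4 endothelial markers only Kdr was measured (116 in DKK1 cells, 66.0 in control cells). Of 5 epithelial markers, Epcam (264 in DKK1 cells, 226 in control cells) and Krt8 (125 in DKK1 cells, 76.2 in control cells at its brightest probe set) were measured. Neither of these lists had a gene called, and Epcam was brighter than Sp7 and Alpl on both arrays. Over all genes, higher ones made up 62.9% of the calls, and their share was 51.1% with quantile normalization, 51.2% with loess, 51.6% with centring on the median, 53.2% with the stricter filter, 85.6% with hybridisation control scaling and 16.6% with poly-A control scaling. Scaling on the poly-A controls moved the median of all genes to −0.50 and scaling on the hybridisation controls moved it to 0.45. The members stood 2.71 and 2.77 above these medians, where the value as deposited was 2.75.

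**Figure D5:**
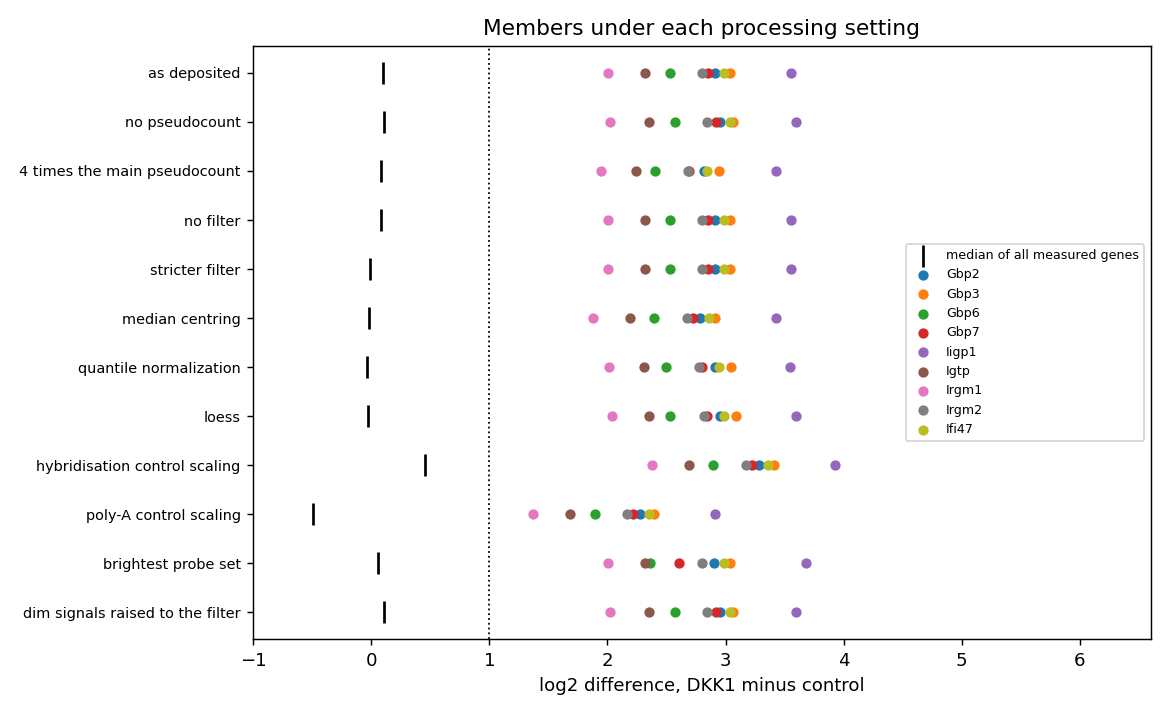
Log2 difference of each of the 9 members (coloured points) and the median of all measured genes (black bar) under the deposited values and 11 other settings, with a dotted line at 2-fold. Every member stays above 1 under every setting shown, with the lowest value 1.37 for Irgm1 under poly-A control scaling.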

How the data were processed

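Total RNA of 1 DKK1 and 1 control sample was converted to biotinylated cRNA and hybridised to mouse expression arrays, per the labels' protocols. The deposited values are intensity values, 1 linear MAS5 signal per probe set, per the submitters' processing notes. The MAS5 version and settings and any genome build were not given in the sources used here. Each array had a 2% trimmed mean of 500.0, a common scaling target. Of 45101 probe sets, 34945 carry 1 gene symbol from the platform annotation, matched by gene ID to RefSeq (GRCm38.p6), and 932 carry several and were left out.

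Differences, the filter and calls were computed in Python 3.11.15 with pandas 2.3.3 and numpy 2.4.6, loess with statsmodels 0.14.6, and the calling step was tested on simulated data. The filter left 19360 probe sets and 11058 genes. A fold against a dim signal was computed with that signal raised to the filter. The 10 members, the lists, the motifs and the rules were chosen with earlier results of these data known. Named are all members, all measured other interferon-induced GTPases, all called receptor and factor genes, up to 3 called genes of each other list, and called neighbours, with exceptions stated. The 11 alternatives cover the pseudocount, filter, scaling, choice of probe set and dim signals. Extending them to genes outside the members was decided after seeing the data.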

Additional observations from a re-analysis of the deposited data

How the results depend on the processing

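All 9 measured members stayed called higher under each of the 11 alternatives (no pseudocount or 4 times the pseudocount, no filter or a stricter one, 5 other scalings, the brightest probe set, and dim signals raised to the filter). The members' median lay between 2.22 and 3.22, and the lower end, 2.22 with poly-A control scaling, was the only value to move by more than the SD of 0.45 between probe sets. The count at 4-fold or more was 6 with poly-A control scaling and 8 with median centring and with 4 times the pseudocount, and 9 otherwise. Of 41 other genes called in the lists and among neighbours, 21 lost the call under at least 1 alternative in which they were measured. None turned its sign. Genes that fell below the stricter filter, such as Gbp8, Mx2 and BC023105, were not counted as losing the call there. With poly-A control scaling the medians of receptors and factors (−0.12), related GTPases (−0.12) and genes on the interferon gamma list (−0.12) were below 0, and 7 autophagy genes were called lower. The cause was not tested beyond the scaling itself, which changes all signals of the DKK1 array by the same factor. Because the pseudocount is added after it, the differences of dim genes move less than those of bright ones. Under that scaling 4.60% of all genes were called higher and 23.1% lower. Under hybridisation control scaling it was 21.6% higher and 3.62% lower, with 6 receptor and factor genes called higher. The related GTPases had 0 called with 4 times the pseudocount, median centring, quantile normalization, loess and poly-A control scaling. No paired analysis was possible because each group has 1 array. No detection calls were used here, which limits the dim genes named, Gbp8, Mx1 and Mx2 among them.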
